A study of Caenorhabditis elegans with 14 samples.

Results

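miR-49-3p and miR-83-3p are the guide strands of a pair of *C. elegans* miRNA genes that share the seed of the vertebrate miR-29 family. They were taken by name from a small RNA sequencing table, where they are 2 of 214 guide strands and 2 of 371 strands in all. The rule used their names and no threshold on a value, but earlier results of these data were known when it was set. The 14 libraries came from 5 groups of whole animals grown at 20 °C, all in the N2 strain background: 2 of *hrpk-1(tm5522)* L4 larvae, and 3 each of *hrpk-1(zen17)* L4 larvae, wild type L4 larvae, *hrpk-1(zen17)* embryos and wild type embryos. *hrpk-1* encodes an RNA binding protein with KH domains, the worm homolog of hnRNP K. The *tm5522* allele is an in-frame deletion that leaves a truncated, antimorphic protein, and *zen17* is a CRISPR deletion of the locus that leaves no detectable protein. The number of animals per library is not given in the sources used here, and nothing in the labels says that replicates were separate cultures, so p-values measure the spread between these libraries.

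A miRNA guide strand is loaded into Argonaute and finds target mRNAs mainly through its seed, the bases near its 5′ end, so members of a seed family can recognise the same sites. The other strand of the hairpin, called star or miR*, is mostly discarded. Vertebrate miR-29 is best known for repressing mRNAs of collagens and other extracellular matrix proteins. In *C. elegans*, mir-83 acts together with mir-34 in gonad morphogenesis. In the Ensembl annotation of WBcel235, mir-49 lies between protein-coding genes on the plus strand of chromosome X, from 9989282 to 9989378, with its 3p strand at 9989342 to 9989363 and its 5p strand at 9989302 to 9989324. The closest protein-coding gene, grk-1, lies 1870 bases away on the other strand. mir-83 lies on the plus strand of chromosome IV from 7841631 to 7841728, with miR-83-3p at 7841691 to 7841712 and miR-83-5p at 7841647 to 7841669. It overlaps the non-coding RNA gene C06A6.9 by 21 bases, which reach into miR-83-5p but not miR-83-3p, and it overlaps no protein-coding gene. In both hairpins the guide is the 3p strand. Both guides are 22 bases long. Counts were not scaled by length, and the efficiency with which each sequence enters a library was not measured.

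The tables summed to between 11195163 and 13766699 counts per *hrpk-1(tm5522)* L4 library, 15112868 and 18574237 per *hrpk-1(zen17)* L4 library and 14926345 and 19762103 per wild type L4 library. Embryo libraries held 6980254 to 10565291 counts in *hrpk-1(zen17)* and 1919348 to 10900326 in wild type, where replicate 3 was the shallowest. Abundances are given in ppm of a library's miRNA counts. The labelled stages were visible in marker miRNAs. The 8 guides of the mir-35 family, which are embryonic miRNAs, summed to between 513588 and 776305 ppm in the embryo libraries and to between 1402 and 3857 ppm at L4. Transcripts of *hrpk-1* are not measured by these libraries, so the genotypes could not be checked in the same way.

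miR-49-3p was the more abundant of the pair in every embryo library, and in L4 libraries the order turned except in 1. In wild type L4 larvae miR-49-3p was at 260, 434 and 160 ppm, against 568, 873 and 1297 ppm in wild type embryos. All 3 L4 libraries lay below all 3 embryo libraries. edgeR's quasi-likelihood test gave a log2 fold change of -1.94 (standard error, SE, 0.28, adjusted p = 8.10e-05), a 3.83-fold lower level at L4. In this comparison 72.2% of the 230 strands tested passed the threshold of an adjusted p of 0.05, so a change between stages was common among miRNAs.

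miR-83-3p went the opposite way between stages. It was at 402, 479 and 252 ppm in wild type L4 larvae and at 29.6, 31.6 and 93.8 ppm in wild type embryos. L4 and embryo libraries were apart, and the log2 fold change was 2.82 (SE 0.28, adjusted p = 4.44e-06), a 7.08-fold higher level at L4. In wild type embryos it was the minor member of the pair, yet above the 4.53 ppm of the median guide strand. By mean ppm miR-83-3p ranked 68 among the 214 guide strands of wild type embryos, where miR-49-3p ranked 36. At L4 the ranks in wild type were 52 for miR-83-3p and 57 for miR-49-3p.

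The same opposite movement was measured in *hrpk-1(zen17)*. miR-49-3p was at 167, 291 and 168 ppm in *hrpk-1(zen17)* L4 larvae, against 961, 1472 and 1066 ppm in *hrpk-1(zen17)* embryos, a log2 fold change of -2.58 (SE 0.27, edgeR adjusted p = 2.28e-06). miR-83-3p was at 244, 262 and 264 ppm in *hrpk-1(zen17)* L4 larvae and at 68.6, 121 and 59.2 ppm in *hrpk-1(zen17)* embryos, a log2 fold change of 1.66 (SE 0.31, adjusted p = 0.000370). Here 72.7% of 238 strands passed. For both guides the 2 stages were separate in every library of this genotype. All 4 stage changes of the guides passed in each of their 13 alternatives.

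**Figure D1:**
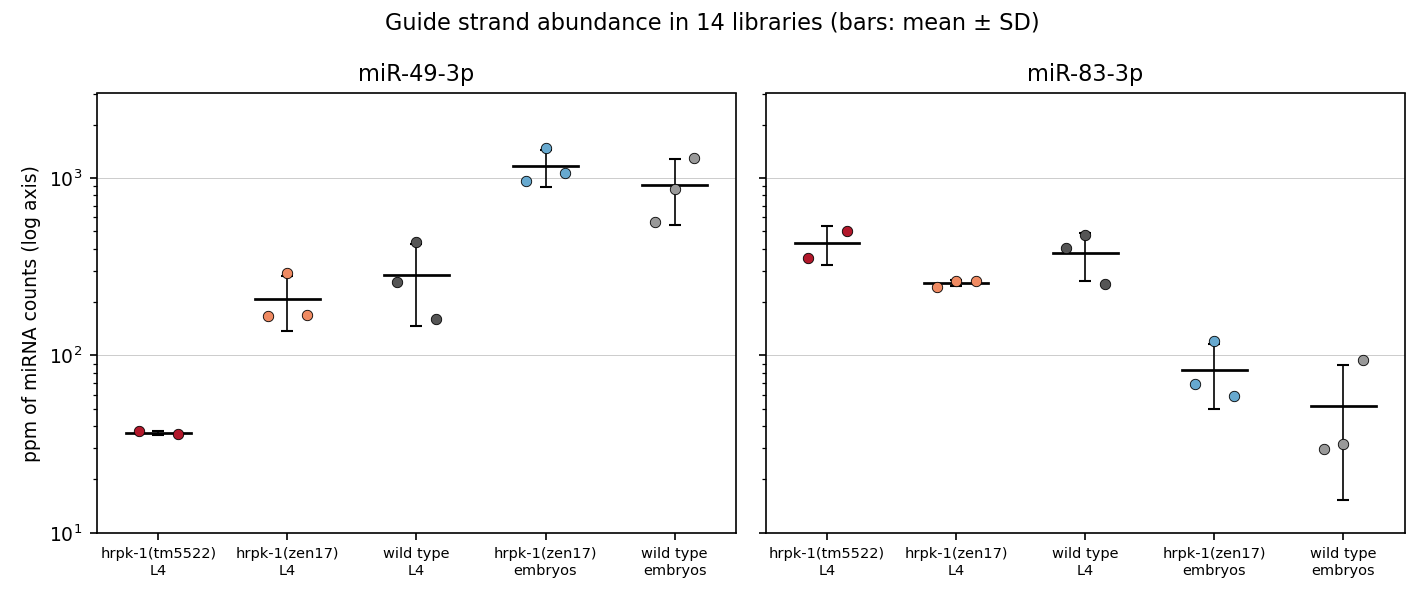
Abundance of miR-49-3p (left) and miR-83-3p (right) in ppm of miRNA counts on a log axis, for the 14 libraries in 5 groups; points are libraries, horizontal lines are group means and error bars are 1 SD. The 2 *hrpk-1(tm5522)* libraries of miR-49-3p sit at 37.2 and 36.0 ppm, below every other library, while miR-83-3p is higher in each L4 library than in each embryo library.

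In *hrpk-1(tm5522)* L4 larvae, miR-49-3p was at 37.2 and 36.0 ppm, from 417 and 496 counts. *hrpk-1(zen17)* L4 libraries were at 167, 291 and 168 ppm and wild type L4 libraries at 260, 434 and 160 ppm. Both *hrpk-1(tm5522)* libraries were below all 6 others of that stage. Against wild type, miR-49-3p was 7.41-fold lower, with a log2 fold change of -2.89 (SE 0.31, 95% interval -3.63 to -2.14, edgeR adjusted p = 0.00504). Of the 232 strands tested here 22.4% passed, and miR-49-3p had the 8th largest decrease among the 232. Against *hrpk-1(zen17)*, with 38.4% of 229 strands called, it was 5.94-fold lower (log2 fold change -2.57, SE 0.26, adjusted p = 0.000132). The comparison with *hrpk-1(zen17)* passed in all 12 alternatives. The one with wild type lost its call without *hrpk-1(tm5522)* replicate 1 (-2.82, adjusted p = 0.0958) or replicate 2 (-2.86, adjusted p = 0.0858), where a single library is left and is assumed to vary like wild type.

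miR-83-3p was not called in either comparison. It was at 356 and 504 ppm in L4 larvae of *hrpk-1(tm5522)*, against 402, 479 and 252 ppm in wild type L4 larvae, and the groups overlapped. The log2 fold change was 0.21 (SE 0.27, 95% interval -0.45 to 0.87, edgeR adjusted p = 0.573). The interval excludes a decrease of the size seen for miR-49-3p in the same libraries. Without *hrpk-1(tm5522)* replicate 2 its direction turned, to -0.07. Against *hrpk-1(zen17)* L4 larvae, at 244, 262 and 264 ppm, both *hrpk-1(tm5522)* libraries were higher, with a log2 fold change of 0.64 (SE 0.25, adjusted p = 0.0647). That difference is at the threshold: 4 of 12 alternatives passed it, with adjusted p from 0.0183 to 0.335.

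The null allele gave no call for either guide at either stage. Between *hrpk-1(zen17)* and wild type L4 larvae, the log2 fold change was -0.33 for miR-49-3p (SE 0.25, 95% interval -0.90 to 0.24, adjusted p = 0.543) and -0.44 for miR-83-3p (SE 0.24, 95% interval -0.98 to 0.10, adjusted p = 0.367). For both miRNAs the libraries of the 2 genotypes overlapped. In this comparison 0% of 228 strands passed by edgeR, 33 had an unadjusted p under 0.05, and DESeq2 called 9. Without wild type L4 replicate 2, the highest of its group for both guides, 13 strands were called, none of them a member of the pair, and both guides stayed below wild type.

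In embryos, miR-49-3p was at 961, 1472 and 1066 ppm in *hrpk-1(zen17)* and at 568, 873 and 1297 ppm in wild type. Its log2 fold change was -0.02 (SE 0.25, 95% interval -0.57 to 0.52, adjusted p = 0.932). The sign at this value depends on the scale: with total miRNA counts in place of TMM, which moves the median of all strands by 0.39, it was 0.35. miR-83-3p was at 68.6, 121 and 59.2 ppm in *hrpk-1(zen17)* embryos and at 29.6, 31.6 and 93.8 ppm in wild type embryos. The log2 fold change was 0.40 (SE 0.25, 95% interval -0.16 to 0.97, adjusted p = 0.315), and wild type replicate 3, the shallow library, lay within the *hrpk-1(zen17)* range. Of 201 strands, 17.9% passed in this comparison.

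The *hrpk-1(zen17)* change was also compared between stages, in a fit of 4 groups where 4.8% of 250 strands passed. It was lower at L4 than in embryos by -0.43 on the log2 scale for miR-49-3p (SE 0.35, 95% interval -1.17 to 0.32, adjusted p = 0.564) and by -0.96 for miR-83-3p (SE 0.42, 95% interval -1.84 to -0.07, adjusted p = 0.245). Neither difference passed in any of 19 alternatives.

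**Figure D2:**
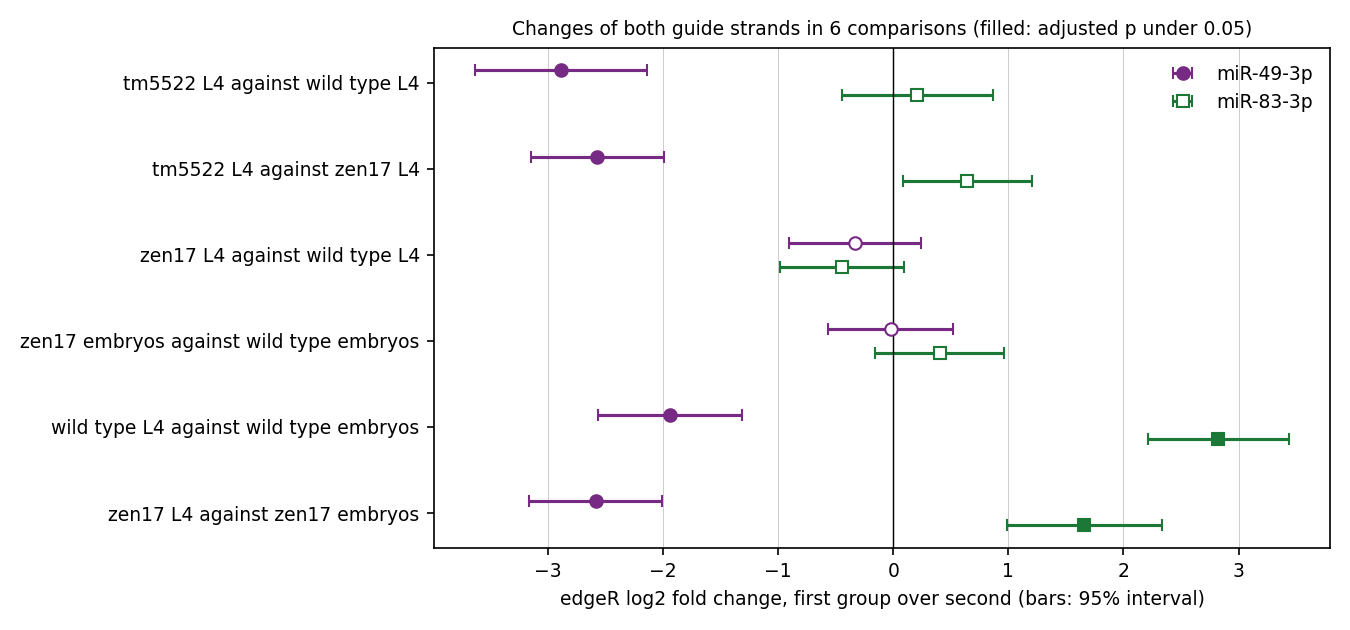
edgeR log2 fold changes of miR-49-3p (circles) and miR-83-3p (squares) in 6 comparisons, the first named group over the second, with 95% intervals; filled symbols have an adjusted p under 0.05. The miR-49-3p values of -2.89 and -2.57 in *hrpk-1(tm5522)* stand beside miR-83-3p values of 0.21 and 0.64 in the same libraries, and between stages the guides move in opposite directions.

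Group means ± SD (n = 2 libraries in *hrpk-1(tm5522)* and n = 3 elsewhere) gave a different order for each guide. From high to low, miR-49-3p averaged 1166 ± 270 ppm in *hrpk-1(zen17)* embryos, 913 ± 366 ppm in wild type embryos, 285 ± 138 ppm in wild type larvae, 209 ± 70.9 ppm in *hrpk-1(zen17)* larvae and 36.6 ± 0.862 ppm in *hrpk-1(tm5522)* larvae. Neighbours in this order that were not called are the 2 embryo groups and the L4 groups of wild type and *hrpk-1(zen17)*. For miR-83-3p the means were 430 ± 105 ppm in *hrpk-1(tm5522)* larvae, 378 ± 115.2 ppm in wild type larvae, 257 ± 11.3 ppm in *hrpk-1(zen17)* larvae, 82.97 ± 33.4 ppm in *hrpk-1(zen17)* embryos and 51.7 ± 36.5 ppm in wild type embryos. Only the step between L4 and embryo groups was called among its neighbours. In whole animals, fewer cells that express a miRNA and less of it per cell cannot be told apart.

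Since both guides carry 1 seed, their balance was followed within each library, where it does not depend on scaling. miR-49-3p made up 9.47% and 6.67% of the pair's counts in *hrpk-1(tm5522)* L4 larvae. It made up 40.7%, 52.6% and 38.9% in *hrpk-1(zen17)* L4 larvae and 39.3%, 47.5% and 38.8% in wild type L4 larvae. In embryos it made up 93.3%, 92.4% and 94.7% of the pair in *hrpk-1(zen17)* and 95.04%, 96.5% and 93.3% in wild type. Embryos were highest, *hrpk-1(tm5522)* larvae lowest and the other L4 libraries between them, and these ranges did not overlap.

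The log2 ratio of miR-49-3p to miR-83-3p averaged -3.53 ± 0.389 (SD, n = 2) for *hrpk-1(tm5522)* L4 larvae, -0.35 ± 0.433 (n = 3) for *hrpk-1(zen17)* L4 larvae and -0.48 ± 0.288 (n = 3) for wild type L4 larvae. The difference from wild type was -3.05, an 8.30-fold shift toward miR-83-3p, and that from *hrpk-1(zen17)* was -3.18. Each had p = 0.1 in an exact two-sided permutation test over libraries, the smallest that 2 against 3 allow, and 0.15 after Benjamini-Hochberg adjustment over the 6 comparisons. Between L4 larvae and embryos the ratio differed by -4.75 in wild type and by -4.21 in *hrpk-1(zen17)*, each at the smallest exact p of 0.1 for 3 against 3 (adjusted p = 0.15). Between *hrpk-1(zen17)* and wild type it differed by 0.13 at L4 (exact permutation p = 0.6) and by -0.42 in embryos (p = 0.3). Without *hrpk-1(zen17)* L4 replicate 2, the only L4 library with more miR-49-3p than miR-83-3p, the L4 difference was -0.12.

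The summed level of the pair overlapped between the L4 groups. It was 393 and 540 ppm in L4 larvae of *hrpk-1(tm5522)*, 411, 553 and 432 ppm in *hrpk-1(zen17)* L4 larvae, and 662, 913 and 412 ppm in wild type L4 larvae. *hrpk-1(tm5522)* overlapped with both other L4 groups (exact permutation p = 0.4 against wild type, 1 against *hrpk-1(zen17)*). In embryos the sum was 1030, 1593 and 1126 ppm in *hrpk-1(zen17)* and 598, 905 and 1391 ppm in wild type (exact permutation p = 0.4). Between stages, all 3 *hrpk-1(zen17)* L4 libraries lay below all 3 *hrpk-1(zen17)* embryo libraries, at 465 ± 76.5 ppm against 1249 ± 301 ppm (SD, n = 3 each), with the smallest exact permutation p possible, 0.1. In wild type the L4 libraries averaged 662 ± 250 ppm and the embryo libraries 964 ± 400 ppm and they overlapped (exact permutation p = 0.5). No comparison of the sum was below an adjusted p of 0.6 over the 6 comparisons, and the design allows no exact p under 0.1.

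**Figure D3:**
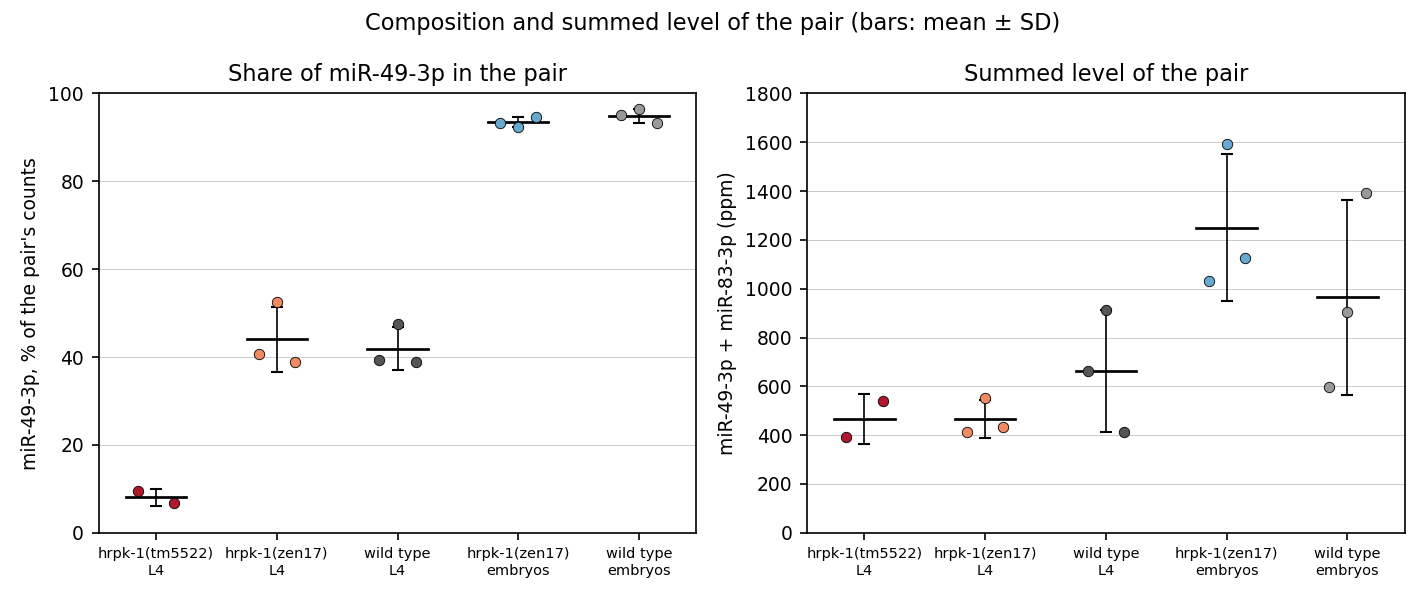
Left, miR-49-3p as a percentage of the counts of miR-49-3p and miR-83-3p together; right, the sum of both in ppm; points are the 14 libraries, lines are group means and error bars are 1 SD. The share of miR-49-3p is 6.67% and 9.47% in L4 larvae of *hrpk-1(tm5522)* and 38.8% to 52.6% in the other L4 libraries, while the summed levels of the L4 groups overlap.

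The star strands were read from the same hairpins. miR-49-5p was rare at L4, with 15 and 30 counts in *hrpk-1(tm5522)*, against 29, 59 and 42 for *hrpk-1(zen17)* and 55, 124 and 44 for wild type. Its log2 fold change in *hrpk-1(tm5522)* against wild type was -1.29 (SE 0.49, edgeR adjusted p = 0.103), less than that of its guide, and of 11 alternatives the fit over all 14 libraries called it (-1.25, adjusted p = 0.0215). miR-49-5p fell with its guide between stages, with a log2 fold change of -3.26 in wild type L4 larvae against embryos (SE 0.38, adjusted p = 1.50e-05). miR-83-5p was 1.60 higher at L4 than in embryos of wild type (SE 0.37, adjusted p = 0.00206). Both strands of each hairpin thus moved the same way with stage.

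The ratio of guide to star counts of mir-49 was 26.9 and 16.3 in *hrpk-1(tm5522)* L4 larvae, against 85.8, 73.9 and 73.6 in *hrpk-1(zen17)* L4 larvae and 73.2, 52.0 and 71.0 in wild type L4 larvae. The *hrpk-1(tm5522)* ratios were below those of all 6 other L4 libraries. limma on log2 ratios gave -1.63 against wild type (SE 0.50, adjusted p = 0.0275, with 35.3% of 85 hairpins called) and -1.89 against *hrpk-1(zen17)* (SE 0.34, adjusted p = 0.00868, with 33.3% of 78 called). Ratio changes were thus frequent in these libraries. The call against wild type was lost in 6 of 8 alternatives, among them the fits without wild type replicate 1 (adjusted p = 0.0758), without wild type replicate 3 (0.0934) and without either *hrpk-1(tm5522)* library (0.0924 and 0.205). The call against *hrpk-1(zen17)* was lost in 1, without *hrpk-1(tm5522)* replicate 2 (0.0664).

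mir-83 had less unequal strands. Its guide to star ratio was 11.7 and 13.1 in L4 larvae of *hrpk-1(tm5522)*, against 12.0, 10.4 and 11.4 in *hrpk-1(zen17)* L4 larvae and 12.6, 22.0 and 15.8 in wild type L4 larvae. The limma difference was -0.40 against wild type (SE 0.49, adjusted p = 0.550) and 0.14 against *hrpk-1(zen17)* (SE 0.29, adjusted p = 0.745). In wild type the ratio was higher at L4 than in embryos for mir-49 (1.35, adjusted p = 0.0310) and mir-83 (1.29, adjusted p = 0.0462), with 51.8% of 85 hairpins called. In *hrpk-1(zen17)* it was 1.24 higher for mir-49 (adjusted p = 0.0292) and 0.47 for mir-83 (adjusted p = 0.332), with 39.3% of 89 called. These stage calls were near the threshold. Those of mir-49 and mir-83 in wild type were each lost without wild type embryo replicate 1 or 2 or L4 replicate 1 or 3, and that of mir-83 also without L4 replicate 2. That of mir-49 in *hrpk-1(zen17)* was lost without any library except embryo replicate 2. Over the fits that drop a library, the lost calls had adjusted p between 0.0616 and 0.135, while the log2 differences stayed between 1.26 and 1.51 for mir-49 and between 1.08 and 1.48 for mir-83 in wild type, and between 1.14 and 1.31 for mir-49 in *hrpk-1(zen17)*. No hairpin passed between *hrpk-1(zen17)* and wild type by limma (0% of 70 in embryos and 0% of 81 at L4, with 9 and 8 at an unadjusted p under 0.05).

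**Figure D4:**
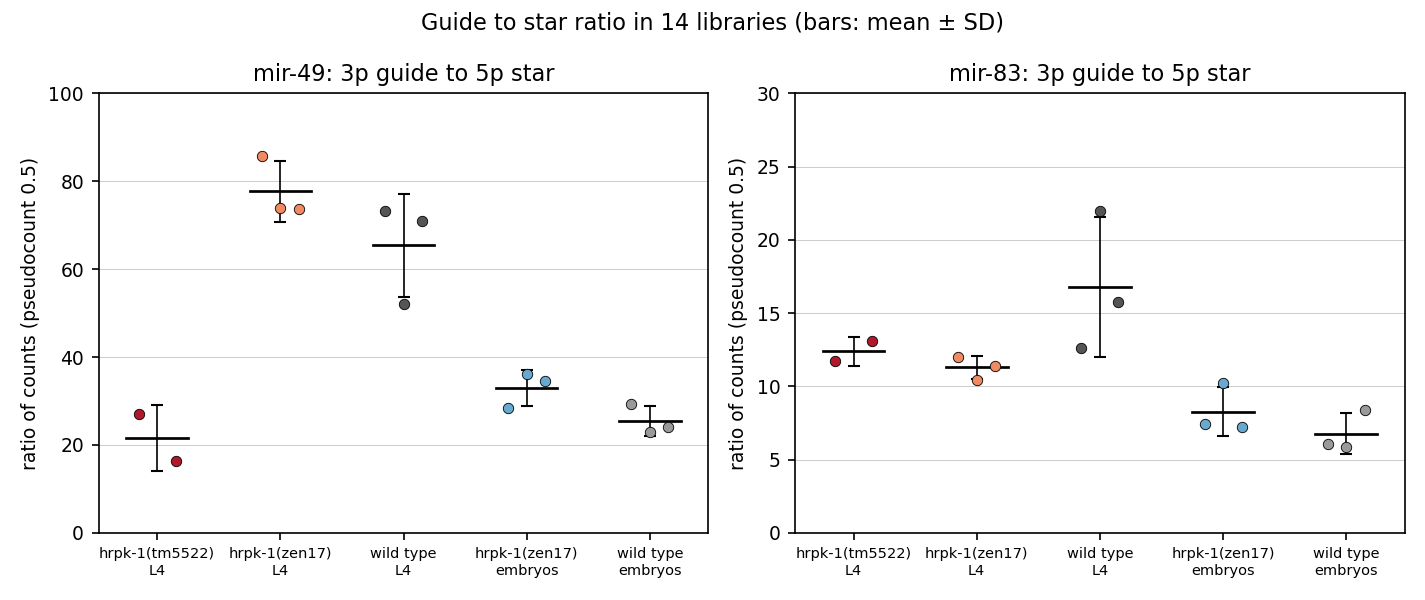
Ratio of guide (3p) to star (5p) counts, with a pseudocount of 0.5, for mir-49 (left) and mir-83 (right) in the 14 libraries; lines are group means and error bars are 1 SD, and the 2 axes differ. For mir-49 the *hrpk-1(tm5522)* L4 libraries are at 26.9 and 16.3, below the other L4 libraries at 52.0 to 85.8, while for mir-83 they lie within the range of the other L4 libraries.

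miR-34-5p, the partner of mir-83 in gonad morphogenesis, was lower in *hrpk-1(tm5522)*, where miR-83-3p was not called. The difference between these 2 miRNAs was not tested. miR-34-5p was at 15.5 and 16.8 ppm in L4 larvae of *hrpk-1(tm5522)*, against 59.3, 143 and 62.5 ppm in *hrpk-1(zen17)* L4 larvae and 83.8, 127 and 51.2 ppm in wild type L4 larvae. Its log2 fold change against wild type was -2.38 (SE 0.28, edgeR adjusted p = 0.00648), a call lost without *hrpk-1(tm5522)* replicate 1 (-2.23) or replicate 2 (-2.44). Against *hrpk-1(zen17)* it was -2.48 (SE 0.33, edgeR adjusted p = 0.000465), which passed in all 12 alternatives. miR-34-5p and miR-83-3p shared the stage change: miR-34-5p was 4.85 higher at L4 than in embryos of wild type on the log2 scale (SE 0.35, adjusted p = 4.43e-07).

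Among 12 guides that share a seed with vertebrate miRNAs, such as let-7-5p, lin-4-5p and miR-1-3p, 2 fell, 1 rose and 9 were not called in *hrpk-1(tm5522)* against wild type L4 larvae. The 3 calls stand beside 22.4% called over the 232 strands tested, a share near theirs, and the median log2 fold change was -0.40, beside -0.09 over all. The 2 that fell with miR-49-3p were miR-34-5p and the neuronal miRNA miR-124-3p (-2.49, SE 0.26, adjusted p = 0.00504), and the one that rose was miR-228-5p (1.23, SE 0.30, adjusted p = 0.0341). The miR-228-5p call was lost without any of 4 libraries, wild type replicate 1 or 3 or either *hrpk-1(tm5522)* library (adjusted p from 0.0810 to 0.234), and that of miR-124-3p without either *hrpk-1(tm5522)* library (0.0958 and 0.0858). Against *hrpk-1(zen17)*, 2 of the 12 were higher and 3 lower in *hrpk-1(tm5522)* (38.4% called over all, median -0.25, beside -0.14). Between *hrpk-1(zen17)* and wild type, 2 were higher in embryos (17.9% called over all, median 0.58, beside -0.08) and 0 were called by edgeR at L4, with 2 at an unadjusted p under 0.05 (median 0.13, beside 0.04). Between L4 and embryos, 6 were higher and 1 lower in wild type (72.2% called over all, median 0.93, beside 0.38), and 5 were higher and 3 lower in *hrpk-1(zen17)* (72.7% called over all, median 0.37, beside -0.27).

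Levels of marker miRNAs of tissues and stages are given beside the result for miR-49-3p. The 2 neuronal markers lsy-6-3p and miR-124-3p summed to 27.4 to 27.8 ppm in *hrpk-1(tm5522)* L4 larvae, 82.2 to 90.0 ppm in *hrpk-1(zen17)* L4 larvae and 89.8 to 182 ppm in wild type L4 larvae. The 5 larval markers (let-7-5p, miR-48-5p, miR-84-5p, miR-241-5p and lin-4-5p), which rise through larval development, summed to between 206181 and 234392 ppm in *hrpk-1(tm5522)*, 158896 and 192275 ppm in *hrpk-1(zen17)* and 90389 and 157158 ppm in wild type L4 larvae. The muscle miRNA miR-1-3p was between 126725 and 177312 ppm in *hrpk-1(tm5522)*, 119728 and 199855 ppm in *hrpk-1(zen17)* and 200397 and 353490 ppm in wild type. Of the single markers tested in *hrpk-1(tm5522)* against wild type, and named after their values were seen, miR-124-3p passed and 3 others did not by edgeR: let-7-5p (log2 fold change 1.03, adjusted p = 0.191), lin-4-5p (-0.46, adjusted p = 0.222) and miR-1-3p (-0.72, adjusted p = 0.148). The larval list was thus not uniform, with lin-4-5p below and let-7-5p above wild type in these values. let-7-5p passed under the replicate block (1.56, adjusted p = 0.00671) and in none of 11 other alternatives. The mir-35 family sum, 1444 to 1650 ppm in *hrpk-1(tm5522)*, lay within the wild type L4 range. No marker of these lists was at 0 throughout a group. Their part in the change of miR-49-3p was not tested.

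The strands whose profile was most like that of miR-49-3p, by Pearson's r of log2 CPM over the 14 libraries among 251 strands, were the guides miR-76-3p (0.97), miR-242-5p (0.95) and miR-251-5p (0.92). Over the 8 L4 libraries alone their r was 0.97, 0.93 and 0.96. A high r did not mean a decrease of like size. In *hrpk-1(tm5522)* against wild type L4 larvae, miR-242-5p had a log2 fold change of -0.94 (SE 0.25, edgeR adjusted p = 0.0435). That call was lost in 7 of 12 alternatives. Against *hrpk-1(zen17)* L4 larvae, miR-242-5p was at -1.06 (SE 0.23, edgeR adjusted p = 0.00599), which passed in 11 of 12 alternatives. miR-76-3p was at 48.6 ± 10.1 ppm in the *hrpk-1(tm5522)* group (SD, n = 2) and 383 ± 320 ppm (SD, n = 3) in wild type L4 larvae, with a log2 fold change of -2.84 (SE 0.54, edgeR adjusted p = 0.0210). Its call was lost without *hrpk-1(tm5522)* replicate 1 (-2.97) or replicate 2 (-2.64), where a single library of that group is left. Against *hrpk-1(zen17)* L4 larvae, miR-76-3p was at -2.61 (SE 0.28, edgeR adjusted p = 0.000180), which passed in all 12 alternatives, as for miR-49-3p. miR-251-5p had 0 counts in both *hrpk-1(tm5522)* libraries, which allows up to 0.268 and 0.218 ppm, and was at 0.331 to 0.926 ppm in *hrpk-1(zen17)* and 0.253 to 1.00 ppm in wild type L4 larvae. The limit of 0.268 ppm lies above the lowest wild type L4 value. Against wild type L4 larvae miR-251-5p missed the count minimum and was not tested. Against *hrpk-1(zen17)* L4 larvae it was called (log2 fold change -6.17, SE 1.52, edgeR adjusted p = 0.0119). It met the minimum there only through the *hrpk-1(zen17)* libraries, and the size of that change rests on 0 counts. miR-251-5p is near the floor, since 3 counts make 0.152 to 0.201 ppm in wild type L4 libraries. Its gene mir-251 is the nearest miRNA gene to mir-49 in the annotation, 1015350 bases away.

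For miR-83-3p the most alike were the guides miR-60-3p (0.98) and miR-80-3p (0.98) and the star strand miR-230-5p (0.98), all higher at L4 than in embryos. Over the 8 L4 libraries alone their r with miR-83-3p was 0.80, 0.38 and 0.22, lower than over both stages. miR-60-3p was at 6173 ± 1556 ppm in the *hrpk-1(tm5522)* group (SD, n = 2), 5096 ± 2208 ppm (n = 3) in wild type L4 larvae and 1011 ± 700 ppm (n = 3) in wild type embryos. Between the members themselves r was -0.83 over the 14 libraries and -0.51 over the 8 at L4. These values are descriptions, since libraries of a group share stage and genotype.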

How the data were processed

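Small RNA from whole embryos and L4 larvae was size selected on gels, made into NEXTflex libraries and sequenced on an Illumina NextSeq. The table the authors deposited holds raw read counts for each mature strand and says which strand of a hairpin is guide and which star. The submitters' processing notes name cutadapt 1.15 and Bowtie; the miRNA annotation, the build and the treatment of reads matching several miRNAs are not given in the sources used here. All 14 columns were matched to samples by title, and no 2 libraries were identical. Of 371 strands, 30 had 0 counts throughout.

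Tests of abundance used the quasi-likelihood method of edgeR 4.0.16 (R 4.3.3) with TMM factors, and Benjamini-Hochberg adjustment over every strand tested. A strand was tested if at least 10 counts were seen in a number of libraries equal to the smaller group, or in 3 for the comparison of stages. Standard errors came from the test statistic. Guide to star ratios (pseudocount 0.5) were tested with limma 3.58.1 over all hairpins whose star strand met the same minimum. Ratios and sums of the pair were compared by exact two-sided permutation tests. Log2 CPM for likeness used a prior count of 2. Scripts were tested on simulated data. The named strands are the members, their star strands, miR-34-5p, the 3 strands most alike each member, and called strands of the 12-strand conserved list. Members and lists were chosen with earlier results of these data known. Alternatives were DESeq2 1.42.0, RLE factors, total counts, other filters, a fit over all 14 libraries, a replicate block, a pseudocount of 5 and each library left out. Limits set at 3 counts allow for counting error alone and not for PCR duplication. Mature sequences were not used here. Figures used matplotlib 3.10.9. Same-numbered libraries were not taken as pairs.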

Additional observations from a re-analysis of the deposited data

Results flagged for a closer look

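The effect of *hrpk-1(zen17)* on miR-34-5p differed between stages in a test of the difference itself. miR-34-5p was at 13.2, 20.3 and 12.0 ppm in *hrpk-1(zen17)* embryos and at 1.28, 2.20 and 5.21 ppm in wild type embryos, a log2 fold change of 2.18 (standard error, SE, 0.32, edgeR adjusted p = 0.000867), from 10 to 17 counts per wild type library. At L4 it was at 59.3, 143 and 62.5 ppm in *hrpk-1(zen17)* and at 83.8, 127 and 51.2 ppm in wild type. The change at L4 was lower than that in embryos by -2.23 on the log2 scale (SE 0.46, adjusted p = 0.00563, with 4.8% of strands called), and with total miRNA counts as the scale it was -2.56 (adjusted p = 0.0874). lin-4-5p, a miRNA of larval development and one of the larval markers, differed between stages in the same test and is named after its values were seen. In *hrpk-1(zen17)* embryos its log2 fold change against wild type was 2.28 (SE 0.34, adjusted p = 0.00110), and its change at L4 was lower than that in embryos by -2.58 (SE 0.40, adjusted p = 0.000699). Its call in the comparison of stages held in all 19 alternatives. let-7-5p, another larval marker, went the other way without a call. It was at -0.58 in *hrpk-1(zen17)* embryos (edgeR adjusted p = 0.440) and 0.70 in the comparison of stages (adjusted p = 0.663). The 5 larval markers summed to 143 to 380 ppm in wild type embryos and 240 to 434 ppm in *hrpk-1(zen17)* embryos, which overlapped. The part of lin-4-5p in the result for miR-34-5p was not tested.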

How the results depend on the processing

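Over the alternatives to the comparisons of the guides, their ratio and sum, the guide to star ratios and the counts of calls, 406 values kept their direction and side of the threshold (for counts, stayed within 1.5 times), 29 lost a call, 4 gained one, 11 changed sign and 19 counts moved. The cause was not tested. The ratio and sum of the pair could change only in direction here, since the design allows no exact permutation p under 0.1. Values near 0 changed sign, also for the star strands, which the tally above leaves out. For miR-49-3p in *hrpk-1(zen17)* against wild type embryos the log2 fold change was 0.35 with total counts, 0.015 with no filter, 0.058 in the fit over 14 libraries, and -0.16 to 0.079 with a library left out. For miR-83-5p in *hrpk-1(zen17)* against wild type L4 larvae it was -0.053 with DESeq2 and RLE, -0.024 with total counts or no filter, -0.10 with at least 100 counts, -0.040 over 14 libraries, and -0.24 to 0.28 with a library left out. For the *hrpk-1(zen17)* change at L4 against that in embryos, miR-83-5p was at 0.0058 with DESeq2 and 0.0021 with RLE, and miR-49-5p at -0.50 to 0.11 with a library left out. The summed level in *hrpk-1(tm5522)* against *hrpk-1(zen17)* L4 larvae was -2.83 ppm with a TMM-scaled sum and -72.3 to 74.4 ppm with a library left out, alternatives chosen after seeing the data. The log2 ratio of the pair in *hrpk-1(zen17)* against wild type L4 larvae ranged between -0.12 and 0.30.

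With a library left out, *hrpk-1(tm5522)* against wild type ranged between -2.99 and -2.76 for miR-49-3p and between -0.066 and 0.53 for miR-83-3p. Against *hrpk-1(zen17)*, miR-83-3p passed with DESeq2 (0.71, adjusted p = 0.0183), RLE (0.71, 0.0436) and no filter (0.76, 0.0373), and ranged between 0.47 and 0.94 with a library left out. The guide to star call of mir-49 in *hrpk-1(tm5522)* was lost against wild type with no star filter (-1.63) and the replicate block (-1.56), and ranged between -1.99 and -1.26 with a library left out and between -2.25 and -1.53 against *hrpk-1(zen17)*. The stage calls of this ratio were lost with no filter or with the block at the same values, 1.35 for mir-49 and 1.29 for mir-83 in wild type and 1.24 for mir-49 in *hrpk-1(zen17)*, and with a library left out ranged between 1.26 and 1.51, 1.08 and 1.48, and 1.14 and 1.31.

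Strands called in *hrpk-1(zen17)* embryos, 36, became 17 with total counts (94.1% of them higher, beside 58.3%), 22 with at least 100 counts and 17 to 43 with a library left out. At L4, 0 by edgeR (33 at an unadjusted p under 0.05) became 9 with DESeq2, 3 with total counts and 0 to 13. In *hrpk-1(tm5522)* against wild type, 52 became 80 with DESeq2, 83 over 14 libraries and 0 to 110. The 0, by edgeR, came without either *hrpk-1(tm5522)* library, where 51 and 64 strands had an unadjusted p under 0.05 and DESeq2 was not run. Against *hrpk-1(zen17)*, 88 became 40 over 14 libraries and 53 with the replicate block. For the comparison of stages 12 became 19 with DESeq2, and with RLE 27.3% of calls were higher, beside 16.7%. Same-numbered libraries did not deviate together (r between -0.34 and 0.15 over 16 pairs), so the replicate block, under which miR-49-3p in *hrpk-1(tm5522)* against wild type was at -2.97, only shares a number. In no comparison did every library correlate best with its own number. The 2 *hrpk-1(tm5522)* libraries limit each comparison of that allele, and the shallow wild type embryo replicate 3 limits low strands.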
